A study of Mus musculus with 15 samples.

Results

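Endothelial identity genes were measured as bulk RNA in whole mouse lungs. They comprise 34 genes that mark endothelial cells in general, lung capillaries or large vessels, and were taken as the rows of the raw count table that carry their symbols. All 34 were found once among the 46603 genes of the table, and all 34 passed the filter on low counts that left 15870 genes for testing. All animals were athymic Swiss nude (Foxn1nu/nu) mice, young adults of either sex, which lack a working thymus and therefore most T cells. SCR-treated mice (6 lungs) received the secretome (SCR) of 143B cells, a human osteosarcoma line, by daily intraperitoneal injection for 1 week. PT-bearing mice (5 lungs) carried a subcutaneous primary tumour (PT) grown in the lower flank from 143B Luc+ cells. Control mice (CTR, 4 lungs) have no treatment in their labels, and whether these lungs came from vehicle-injected or untreated animals is not stated there. The comparisons ask whether secreted tumour factors, or a distant tumour, change the lung before metastases form. The tumour and the secretome come from 1 human cell line, so other osteosarcomas are not represented.

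Endothelial cells line every vessel and form the wall through which the alveoli exchange gas with blood. They hold together through adherens junctions built on VE-cadherin and tight junctions built on claudin-5, and their identity is kept by Ets factors such as Erg and by SoxF factors (Sox7, Sox17 and Sox18). Flow and circulating BMP ligands act on them through ALK1 and endoglin, and receptors for angiopoietin, sphingosine 1-phosphate and adrenomedullin keep the barrier tight. Mouse lung capillaries hold 2 kinds of endothelial cell. Aerocytes, marked by Car4, Ednrb and Apln, lie against the alveolar type 1 cells, whereas general capillary cells, marked by Gpihbp1 and Plvap, are the progenitor-like population. Von Willebrand factor is most abundant in larger vessels.

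Total counts per lung were 13078095 to 18621680 in SCR-treated, 12767431 to 17386086 in PT-bearing and 14167644 to 22109856 in CTR lungs. The count of a member in a lung was never below 111 (the lowest being for Nos3) and reached 47450 for Adgrf5, so every member was well detected. Counting error was not estimated apart from the differences between animals. SCR-treated lungs 1 to 3 stood apart from all other lungs before any endothelial gene was considered: their mean log2 CPM over 9 glucocorticoid response genes was 6.62 to 6.91, against 5.03 to 5.97 in the other 12 lungs, and over 6 B cell genes it was 2.24 to 3.14 against 4.70 to 6.15. Where leaving them out changed a member's direction or its side of the threshold in SCR-treated against CTR lungs, both values are given. For PT-bearing against SCR-treated lungs the members that changed side are named. Alveolar type 1 genes, which mark lung tissue, averaged 8.85 to 9.56 in log2 CPM in all 15 lungs. By Xist and Y-linked reads, 2 of the SCR-treated, 2 of the PT-bearing and 0 of the CTR lungs were female. The female SCR-treated lungs were lungs 4 and 6. SCR-treated lungs 1 to 3 were all male, so leaving them out also shifts the group towards female lungs. The part of sex in those values cannot be told apart.

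The 150 bases before the RefSeq start of 4 members are shown. The start of each coincides with the gene start in the count table, as it also does for Cldn5 and Erg, which are not shown. The 4 had different results, Eng, Adgrf5 and Apln being among the lower members in SCR-treated lungs and Clec14a being level. RefSeq promoter windows (GRCm38.p6, 250 bases before and 50 after each start) were at hand for 15 of the 34 members, in 20 windows. Capitals mark the core letters bound by Ets factors, GGAA or, on the other strand, TTCC.
Eng, chr2:32646445-32646594, plus strand: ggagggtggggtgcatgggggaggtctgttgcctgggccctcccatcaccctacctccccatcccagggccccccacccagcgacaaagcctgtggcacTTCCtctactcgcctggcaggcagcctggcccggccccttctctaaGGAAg
Adgrf5, chr17:43389316-43389465, plus strand: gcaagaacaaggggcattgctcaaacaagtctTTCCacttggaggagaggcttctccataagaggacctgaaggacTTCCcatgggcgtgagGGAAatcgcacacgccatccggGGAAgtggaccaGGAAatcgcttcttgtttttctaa
Apln, chrX:48034854-48035003, minus strand: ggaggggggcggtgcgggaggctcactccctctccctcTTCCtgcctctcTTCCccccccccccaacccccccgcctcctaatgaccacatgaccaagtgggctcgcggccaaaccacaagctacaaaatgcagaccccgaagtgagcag
Clec14a, chr12:58269259-58269408, minus strand: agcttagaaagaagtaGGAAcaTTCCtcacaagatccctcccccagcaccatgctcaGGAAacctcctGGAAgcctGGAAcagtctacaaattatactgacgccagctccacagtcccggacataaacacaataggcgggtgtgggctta

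The core occurred 2 times in the stretch of Eng, 5 times in that of Adgrf5, 2 times in that of Apln and 5 times in that of Clec14a. It occurred 0 times in the 150 bases before the gene starts of Cldn5 and Erg, so the stretches shown do not stand for every member. The core was searched for after the values were seen. It is a common word: 96.0% of the 32851 promoter windows in the table held it on either strand, as did 19 of the 20 windows of members. The longer Ets consensus in the forms CAGGAAGT and CCGGAAGT, whose letters include the core, was found on either strand in 1 of the 20 member windows, that of Egfl7, and in 7.07% of all windows. TATAAA, the TATA box, was present in 2 of the 20 member windows (Car4 and Erg) and in 13.6% of all windows.

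Per kilobase of gene length, the members spanned 2 orders of magnitude (RPKM, the CPM divided by the deposited length in kilobases, CPM being the count scaled to the library total with TMM factors). Cldn5, the claudin that seals endothelial tight junctions, was the highest at a mean of 394 RPKM over the 15 lungs, followed by Tmem100, a target of ALK1 signalling, at 388 RPKM. Nos3, the endothelial nitric oxide synthase, was the lowest at 3.99 RPKM, below Mmrn2 at 10.7 RPKM and Sox17 at 12.2 RPKM. Cdh5, which encodes VE-cadherin, stood at 214 RPKM, just below Plvap at 248 RPKM, and Vwf was low for its renown at 14.9 RPKM. Neighbours in this order were mostly closer than their spread: Cldn5 had 355, 406 and 438 RPKM and Tmem100 403, 369 and 388 RPKM in the SCR-treated, PT-bearing and CTR means.

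**Figure D1:**
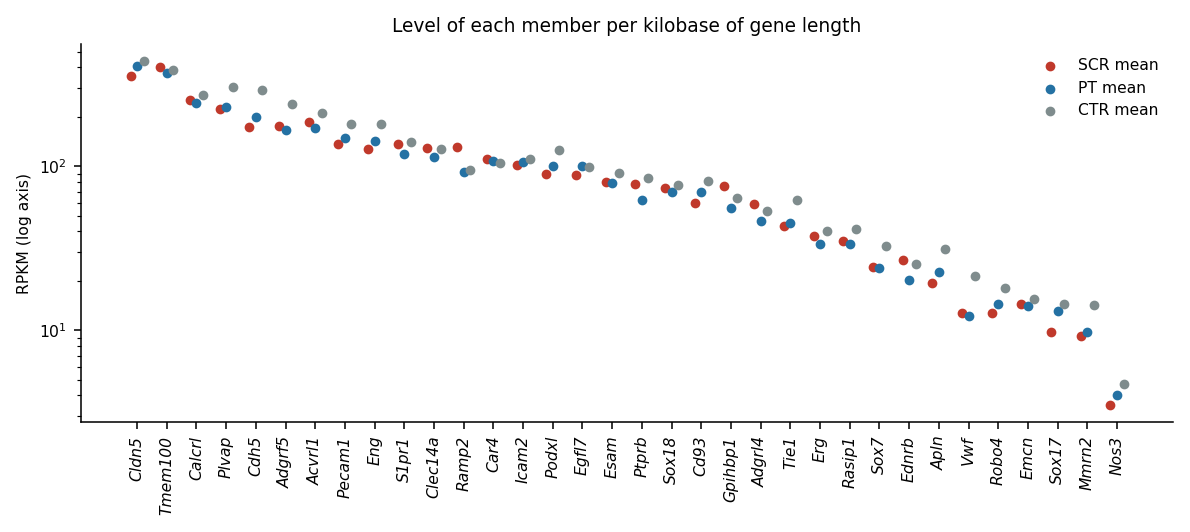
Mean level of each of the 34 members in RPKM (log axis), ordered by the mean over all 15 lungs, with a point for the SCR-treated, PT-bearing and CTR group means. Cldn5 (394 RPKM over all lungs) and Nos3 (3.99 RPKM) mark the ends, and the CTR point is the highest of the 3 for most members.

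In SCR-treated lungs the endothelial identity genes had lower values than in CTR lungs in most cases, but no member passed the test over all genes. Of the 34, 27 had a log2 fold change below 0 and 7 above 0, with a median of -0.21, whereas the median over all genes tested was 0.01. None of the 34 had an adjusted p under 0.05 (edgeR's quasi-likelihood test with Benjamini-Hochberg adjustment), in a comparison in which 0.113% of all genes tested did. At an unadjusted p under 0.05, 13 members were lower, against 10.2% of all genes tested, and 0 were higher, against 8.58% of all genes. DESeq2, run as an alternative, gave 8 members an adjusted p under 0.05, all lower, where it called 4.03% of 15868 genes. By edgeR, 1 member (Cdh5) had an adjusted p under 0.05 without SCR-treated lung 5, as did 0.682% of all genes, and 2 (Cdh5 and Mmrn2) without CTR lung 5, as did 0.55% of all genes. In 4 members (Cdh5, Pecam1, Podxl and Eng) every SCR-treated lung lay below every CTR lung, as did 2.52% of all genes. In bulk tissue, fewer endothelial cells and less RNA per endothelial cell cannot be told apart.

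Without SCR-treated lungs 1 to 3 the number of lower members was again 13, against 5.41% of all genes, and the median was -0.28, but the members were partly others. Icam2 (-0.46), Cldn5 (-0.39), S1pr1 (-0.31) and Nos3 (-0.67) now had an unadjusted p under 0.05, and Adgrf5 (-0.24), Cd93 (-0.28), Apln (-0.28) and Plvap (-0.33) no longer did. Ramp2 (-0.14), Gpihbp1 (-0.24), Car4 (-0.18) and Tmem100 (-0.05) were then below 0, and Ptprb (0.16), Sox18 (0.11), Erg (0.04) and Calcrl, at about 0, were above it.

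In PT-bearing lungs the shift was of like size and also short of the threshold. The log2 fold change was below 0 for 32 members and above 0 for 2 (Car4 and Egfl7), with a median of -0.26, against 0.01 over all genes. No member had an adjusted p under 0.05, and neither did any other gene (0% by edgeR's quasi-likelihood test). DESeq2 called 0.126% of all genes and 0 members. At an unadjusted p under 0.05, 8 members were lower, against 4.73% of all genes, and 0 were higher, against 2.93%. Adgrf5 was the only member whose PT-bearing lungs all lay below all CTR lungs, as did 1.87% of all genes. The count of 8 was 4 without CTR lung 4 and 14 without CTR lung 5, where 317 of 16039 and 1073 of 16000 genes were lower. It was 2 in male lungs only and 9 with sex as a term in the model, where 236 of 15840 and 707 of 15870 genes were lower. With all lungs 751 of 15870 genes were lower. Without CTR lung 4 or 5, and in male lungs only, the number over all genes moved the same way as the count of members. With the sex term the number over all genes was smaller, while the count of members was larger. Both comparisons use the same 4 CTR lungs.

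**Figure D2:**
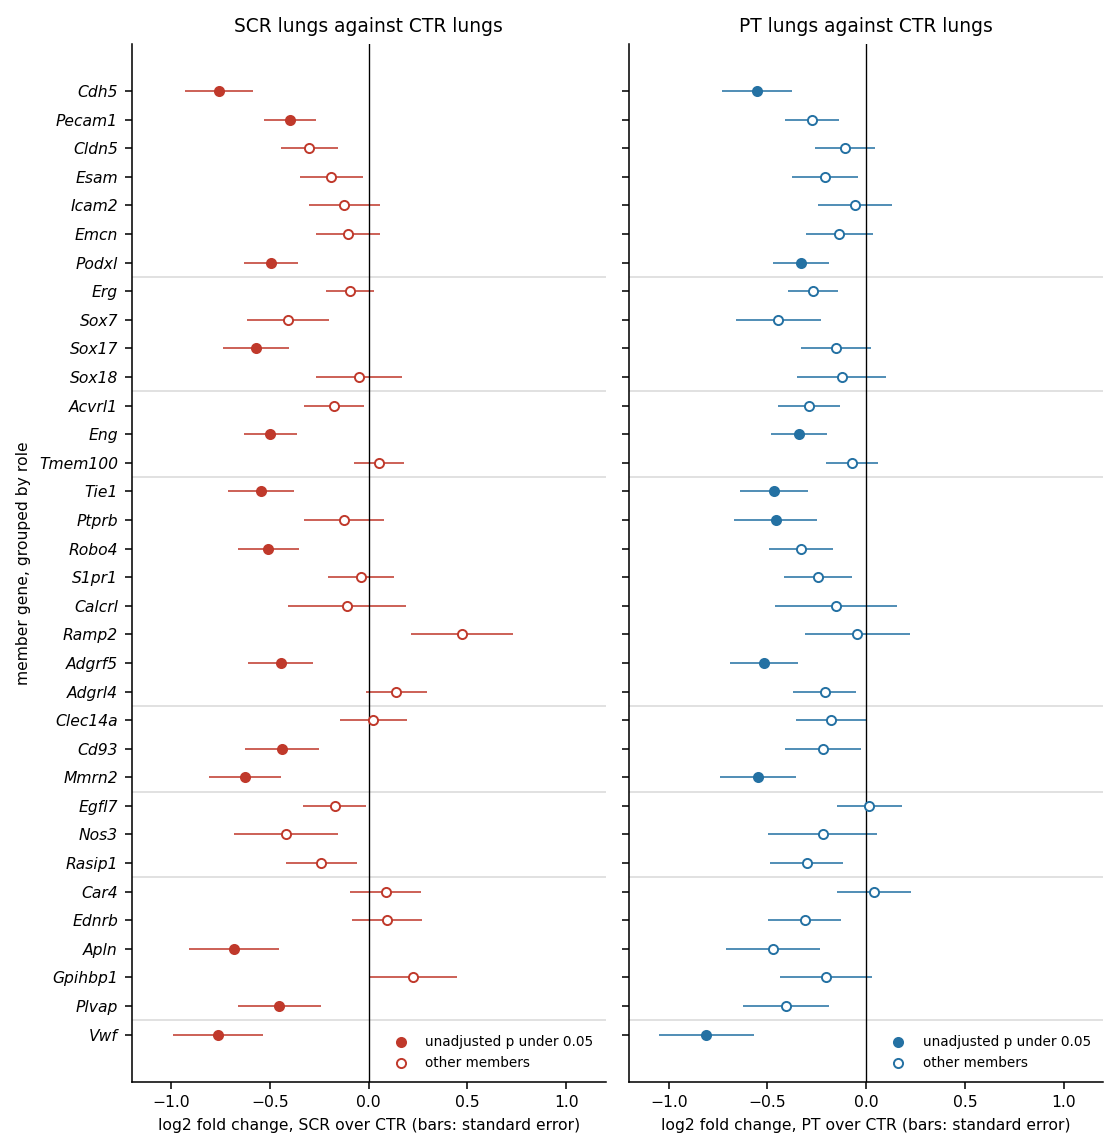
Log2 fold change with its standard error for all 34 members, SCR-treated over CTR lungs on the left and PT-bearing over CTR lungs on the right, in blocks by role from junction genes at the top to Vwf at the bottom. Filled points mark an unadjusted p under 0.05 (13 members on the left, 8 on the right) and none of these lies above 0.

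Between PT-bearing and SCR-treated lungs the members showed no common direction. The median log2 fold change was -0.04, with 19 members below 0 and 15 above, and it was 0.04 when counts were scaled by library size only. None had an adjusted p under 0.05, against 0.0378% of all genes tested. At an unadjusted p under 0.05 Sox17 was higher in PT-bearing lungs (6.19% of all genes were), and Ramp2, Adgrl4 and Ednrb were lower (5.6% of all genes were). The count of 3, at which 889 of all genes were lower, was 0 without SCR-treated lung 2 (725 of 15818 genes were lower then). It was 1 without PT-bearing lung 2, 3, 5 or 6, with 709, 891, 556 and 802 of all genes lower. It was 2 without SCR-treated lung 3, PT-bearing lung 1 or CTR lung 2, 4 or 5, with 557, 797, 909, 863 and 835 lower. It was 4 without SCR-treated lung 4, 5 or 6, with 1124, 1087 and 1047 of all genes lower. Without SCR-treated lungs 1 to 3 the median was 0.02, with 15 members below 0. Then 3 members were lower and 1 higher, against 651 and 842 of 15934 genes, but they were partly others. The lower ones were Ptprb (-0.60 instead of -0.33), Erg (-0.29 instead of -0.17) and Ednrb. The higher one was Icam2 (0.42 instead of 0.07). Sox17, Ramp2 and Adgrl4 no longer had an unadjusted p under 0.05.

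Junction and adhesion genes were all below CTR in both treated groups, and VE-cadherin had the smallest p of the 34 members in SCR-treated lungs. Cdh5 (chromosome 8, 104101625 to 104144502, GRCm38) had 522, 719 and 818 CPM as the lowest, median and highest of the SCR-treated lungs. It had 874, 919.9, 606, 779 and 802 CPM in PT-bearing lungs 1, 2, 3, 5 and 6, and 1076, 1309, 1403 and 883 CPM in CTR lungs 1, 2, 4 and 5. Every SCR-treated lung was below every CTR lung, and PT-bearing lungs 1 and 2 came close to or above CTR lung 5, the lowest control. The log2 fold change was -0.76 ± 0.17 (SE; adjusted p = 0.0783, edgeR) in SCR-treated lungs and -0.55 ± 0.18 (adjusted p = 0.516, edgeR) in PT-bearing lungs. SCR-treated lungs 1 to 3 held the lowest values of the group (522 to 661 CPM), and without them the difference was -0.52 (adjusted p = 0.452, edgeR).

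Pecam1 encodes CD31, the adhesion molecule most used to stain endothelium. Its SCR-treated lungs lay within a narrow band of 809.7 to 906 CPM with a median of 847 CPM. The PT-bearing lungs had 1047, 983, 792, 995 and 822 CPM, and the CTR lungs 979, 1268, 1314 and 926 CPM. The SCR-treated lungs did not overlap the controls and the PT-bearing lungs did. The log2 fold changes were -0.40 ± 0.13 (adjusted p = 0.148) and -0.27 ± 0.14 (adjusted p = 0.672) by edgeR.

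Podxl, a sialomucin of the luminal surface, ran from 428 through a median of 487 to 581 CPM in SCR-treated lungs. It had 606, 575, 449.9, 609 and 504 CPM in PT-bearing lungs, against 616, 744, 813 and 588 CPM in CTR lungs. Only the SCR-treated lungs were apart from the controls, at a log2 fold change of -0.49 ± 0.14 (adjusted p = 0.107, edgeR). In PT-bearing lungs it was -0.33 ± 0.14 (adjusted p = 0.616, edgeR).

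Cldn5, the most abundant member per length, had 425, 502 and 588 CPM as lowest, median and highest in SCR-treated lungs. The PT-bearing lungs had 682, 632, 532, 535 and 487 CPM, and the CTR lungs 489, 647, 767 and 571 CPM. All 3 groups overlapped. The other adhesion genes, Esam (a junctional immunoglobulin protein), Icam2 (a leukocyte ligand) and Emcn (a sialomucin), overlapped too, with log2 fold changes of -0.19 to -0.10 in SCR-treated and -0.21 to -0.06 in PT-bearing lungs. Icam2 had 222 to 256 CPM in SCR-treated lungs 1 to 3 and 137 to 156 CPM in lungs 4 to 6, against 173 to 249 CPM in CTR lungs, and its value in SCR-treated lungs was -0.46 without lungs 1 to 3.

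Among the transcription factors, Sox17, the SoxF factor tied to arterial fate, was lower in SCR-treated lungs at an unadjusted p under 0.05 and did not follow in PT-bearing lungs. It had 38.1, 46.9 and 57.9 CPM as lowest, median and highest in SCR-treated lungs. It had 67.2, 62.7, 70.1, 68.0 and 44.2 CPM in PT-bearing lungs and 85.8, 47.0, 76.0 and 68.7 CPM in CTR lungs. CTR lung 2 and PT-bearing lung 6 lay among the SCR-treated values, and the remaining CTR and PT-bearing lungs lay above them. Sox17 had a log2 fold change of -0.57 ± 0.17 (adjusted p = 0.123) in SCR-treated and -0.15 ± 0.18 (adjusted p = 0.887) in PT-bearing lungs (edgeR). The direct comparison of PT-bearing with SCR-treated lungs gave 0.42 ± 0.16 (adjusted p = 0.318, edgeR). Without SCR-treated lungs 1 to 3 that comparison had an unadjusted p above 0.05 by edgeR. Erg, the Ets factor of endothelial identity, differed little, at -0.09 and -0.27 in SCR-treated and PT-bearing lungs. Sox7 had -0.41 and -0.44 and Sox18 -0.05 and -0.12 in the same order, each with an unadjusted p above 0.05.

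In the BMP receptor axis the co-receptor, endoglin, was further below CTR than the receptor or the target. Eng (chromosome 2, 32646595 to 32682669) had 443, 521 and 576 CPM as lowest, median and highest in SCR-treated lungs. It had 649, 625, 462, 613 and 526 CPM in PT-bearing lungs, against 591, 754, 859 and 709 CPM in CTR lungs. All SCR-treated lungs and 2 of the PT-bearing lungs were below the lowest control, CTR lung 1. Eng had a log2 fold change of -0.50 ± 0.13 (adjusted p = 0.101) in SCR-treated and -0.34 ± 0.14 (adjusted p = 0.603) in PT-bearing lungs by edgeR. Acvrl1, which encodes ALK1, had -0.18 and -0.29, and Tmem100 had 0.05 and -0.07, with overlapping groups. Whether endoglin differed from its partners more than chance was not tested.

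Of the 8 signalling receptors, Tie1, Robo4 and Adgrf5 were lower in SCR-treated lungs, and Tie1, Ptprb and Adgrf5 in PT-bearing lungs, at an unadjusted p under 0.05. Adgrf5 (chromosome 17, 43389466 to 43459557) is an adhesion GPCR that the lung endothelium shares with alveolar type 2 cells. It had 922, 1573 and 1905 CPM as lowest, median and highest in SCR-treated lungs. It had 1283, 1473, 1463, 1522 and 1359 CPM in PT-bearing lungs and 2242, 1909.7, 2186 and 1796 CPM in CTR lungs. The PT-bearing lungs were all below the controls, while SCR-treated lung 5 overlapped them and SCR-treated lung 1 was the lowest of all 15. Its log2 fold change was -0.45 ± 0.17 (adjusted p = 0.174) in SCR-treated and -0.52 ± 0.17 (adjusted p = 0.543) in PT-bearing lungs (edgeR). Without SCR-treated lungs 1 to 3 the first value was -0.24 (adjusted p = 0.544).

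Tie1, the orphan partner of the angiopoietin receptor, ran from 155 through a median of 221 to 241 CPM in SCR-treated lungs. It had 271, 273, 172, 203 and 196 CPM in PT-bearing lungs and 289, 322, 380.3 and 240.1 CPM in CTR lungs. CTR lung 5 alone reached down to the treated values. The log2 fold changes were -0.54 ± 0.17 (adjusted p = 0.127) and -0.47 ± 0.17 (adjusted p = 0.587, edgeR) in SCR-treated and PT-bearing lungs.

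Robo4, a guidance receptor that steadies the barrier, had 39.4, 53.3 and 60.3 CPM as lowest, median and highest in SCR-treated lungs. The PT-bearing lungs had 72.4, 71.3, 48.5, 58.2 and 44.8 CPM, against 80.2, 73.0, 84.6 and 59.1 CPM in CTR lungs. The SCR-treated lungs overlapped CTR lung 5 alone. The log2 fold changes were -0.51 ± 0.16 (adjusted p = 0.128) and -0.33 ± 0.16 (adjusted p = 0.667, edgeR). Ptprb, the phosphatase VE-PTP that restrains Tie2, had -0.12 ± 0.20 in SCR-treated and -0.46 ± 0.21 in PT-bearing lungs, and CTR lung 2 overlapped the PT-bearing lungs. S1pr1, the sphingosine 1-phosphate receptor, had -0.04 and -0.25.

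The adrenomedullin receptor pair did not move together. Calcrl, the receptor, differed little between group means, whereas Ramp2, the chaperone that makes it an adrenomedullin receptor, was high in 3 lungs only. Ramp2 (chromosome 11, 101246028 to 101259546) had 688, 558 and 533 CPM in SCR-treated lungs 1, 2 and 3, and 289, 243 and 300.2 CPM in SCR-treated lungs 4, 5 and 6. It had 367, 315, 241, 303 and 293 CPM in PT-bearing lungs and 257, 353, 369 and 275 CPM in CTR lungs. SCR-treated lungs 1 to 3 were above the other 12 lungs, which formed 1 overlapping band. The log2 fold change of 0.47 ± 0.26 in SCR-treated over CTR lungs (adjusted p = 0.329) became -0.14 without those 3 lungs. The -0.52 ± 0.24 of PT-bearing over SCR-treated lungs (adjusted p = 0.417, edgeR) became 0.11.

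Adgrl4, an adhesion GPCR of sprouting vessels, had 230.4, 277 and 313 CPM as lowest, median and highest in SCR-treated lungs. It had 175, 209, 237, 261 and 176 CPM in PT-bearing lungs and 312, 191, 245 and 232 CPM in CTR lungs. The PT-bearing and SCR-treated lungs overlapped through PT-bearing lungs 3 and 5. The log2 fold change of PT-bearing over SCR-treated lungs was -0.35 ± 0.15 (adjusted p = 0.358, edgeR). Without SCR-treated lungs 1 to 3 that comparison of Adgrl4 had an unadjusted p above 0.05 by edgeR.

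**Figure D3:**
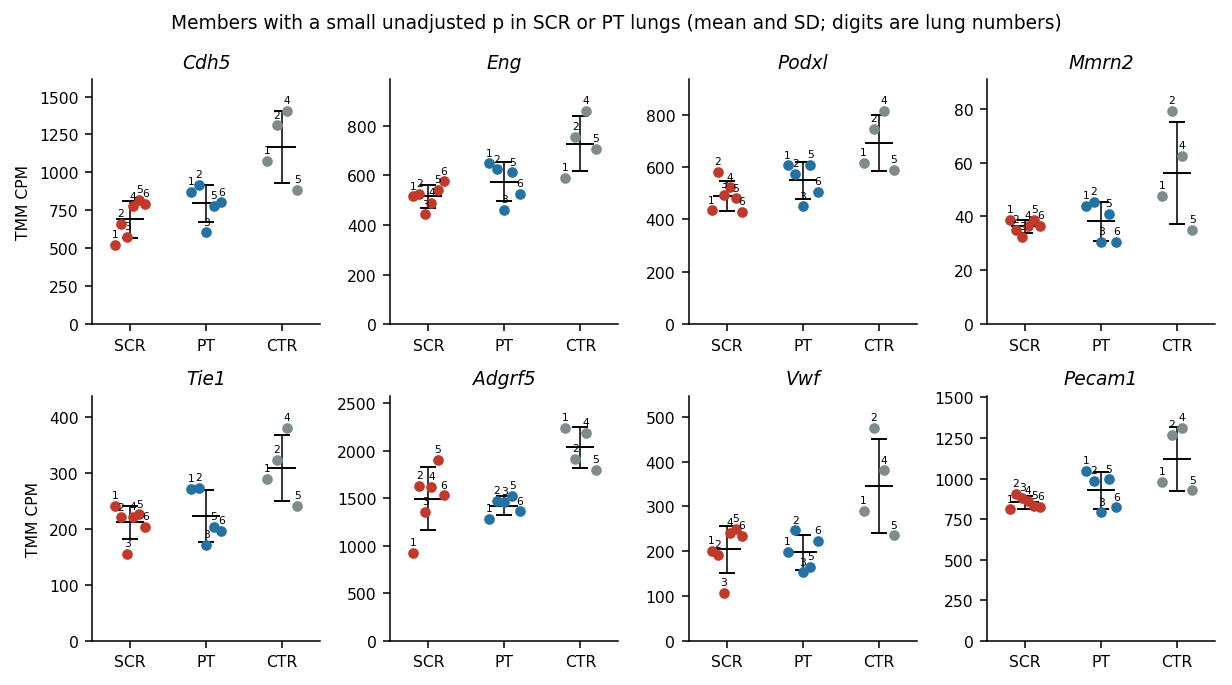
TMM-normalised CPM of 8 members in each lung (SCR, PT and CTR from left to right, digits giving the lung number), with the mean and SD of each group. CTR lung 5 is the lowest or second lowest control in all 8 panels, at 883 CPM for Cdh5 and 235 CPM for Vwf, and the SCR-treated lungs lie wholly below the controls for Cdh5, Eng, Podxl and Pecam1.

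In the C-type lectin family 14 the ligand was lower in both treated groups and the receptor Cd93 in SCR-treated lungs, at an unadjusted p under 0.05. Mmrn2, a matrix protein of the vessel wall that binds Clec14a and Cd93, had 32.4, 36.5 and 38.8 CPM as lowest, median and highest in SCR-treated lungs. It had 44.0, 45.4, 30.5, 41.1 and 30.5 CPM in PT-bearing lungs and 47.7, 79.1, 62.6 and 34.9 CPM in CTR lungs. CTR lung 5 lay within the treated range and the other controls lay above it. Mmrn2 had log2 fold changes of -0.63 ± 0.18 (adjusted p = 0.12) and -0.55 ± 0.19 (adjusted p = 0.568, edgeR). Without CTR lung 5 the first was -0.80 with an adjusted p of 0.047. Cd93 had -0.44 ± 0.19 in SCR-treated and -0.22 ± 0.19 in PT-bearing lungs, and Clec14a had 0.02 ± 0.17 and -0.18 ± 0.18.

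Of the effectors, none had an unadjusted p under 0.05. Nos3 had 7.69, 14.9 and 19.4 CPM as lowest, median and highest in SCR-treated lungs. It had 13.0, 18.7, 15.5, 23.7 and 12.1 CPM in PT-bearing lungs and 21.9, 20.9, 22.6 and 12.03 CPM in CTR lungs, so that all groups overlapped. Opposite-strand genes overlap Egfl7 (Agpat2), Nos3 (Atg9b), Plvap (Gtpbp3) and Eng (Fpgs), with 9.75%, 5.34%, 3.41% and 2.11% of the member's counts, and their values are uncertain because no strand setting of the counting is given in the sources used here. Egfl7, a secreted angiogenic factor, had log2 fold changes of -0.17 and 0.02, and Rasip1, which is needed to open the vessel lumen, had -0.24 and -0.30.

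The capillary genes did not go one way in SCR-treated lungs, where 2 of 5 were below CTR, whereas 4 of 5 (all but Ednrb) were below without SCR-treated lungs 1 to 3. Apln, the apelin ligand of aerocytes and endothelial tip cells, had 49.3, 42.6 and 38.7 CPM in SCR-treated lungs 1, 2 and 3 and 86.5, 65.4 and 84.9 CPM in lungs 4, 5 and 6. It had 76.7, 81.5, 64.3, 70.3 and 61.9 CPM in PT-bearing lungs, against 89.0, 105, 132 and 67.4 CPM in CTR lungs. SCR-treated lungs 1 to 3 were below the other 12 lungs, the reverse of Ramp2. Its log2 fold change was -0.68 ± 0.23 (adjusted p = 0.147, edgeR) in SCR-treated lungs and -0.28 without those 3. In PT-bearing lungs it was -0.47 ± 0.24 (adjusted p = 0.672, edgeR).

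Car4, a carbonic anhydrase of the alveolar capillary surface, had 162, 209.6 and 294 CPM as lowest, median and highest in SCR-treated lungs. It had 280.3, 193, 178, 204 and 204 CPM in PT-bearing lungs and 169, 216, 252 and 188 CPM in CTR lungs, with group means near one another. Its log2 fold change was 0.09 in SCR-treated lungs, and -0.18 without SCR-treated lungs 1 to 3. Ednrb, the endothelin B receptor and the third aerocyte gene, had 73.2, 109.5 and 134 CPM as lowest, median and highest in SCR-treated lungs. Its PT-bearing lungs had 85.4, 79.9, 72.5, 60.1 and 112 CPM and its CTR lungs 112, 79.4, 107 and 108 CPM. Except for PT-bearing lung 6 and SCR-treated lung 1, the PT-bearing lungs were below the SCR-treated lungs. The log2 fold change of PT-bearing over SCR-treated lungs was -0.40 ± 0.17 (adjusted p = 0.361, edgeR).

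Gpihbp1, which carries lipoprotein lipase across general capillary cells, had 313, 188 and 244 CPM in SCR-treated lungs 1, 2 and 3 and 130.3, 130.4 and 148 CPM in lungs 4, 5 and 6. It had 164, 159, 131, 137 and 123 CPM in PT-bearing lungs and 144, 193, 182 and 139 CPM in CTR lungs. SCR-treated lungs 1 and 3 were the highest of all 15, and lung 2 was level with CTR lung 2. In SCR-treated against CTR lungs it had 0.23 ± 0.22, and -0.24 without those 3 lungs. The log2 fold change of PT-bearing over SCR-treated lungs was -0.43 ± 0.21 (adjusted p = 0.444, edgeR) and 0.049 without SCR-treated lungs 1 to 3. Plvap, the protein of fenestral diaphragms, had 349, 474 and 502 CPM as lowest, median and highest in SCR-treated lungs. It had 632, 543, 310.0, 374 and 465 CPM in PT-bearing lungs and 500.3, 768, 779 and 417 CPM in CTR lungs. CTR lungs 2 and 4 were above all other lungs while CTR lungs 1 and 5 lay among them, and the log2 fold changes were -0.45 ± 0.21 (adjusted p = 0.259) and -0.41 ± 0.22 (adjusted p = 0.677, edgeR).

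**Figure D4:**
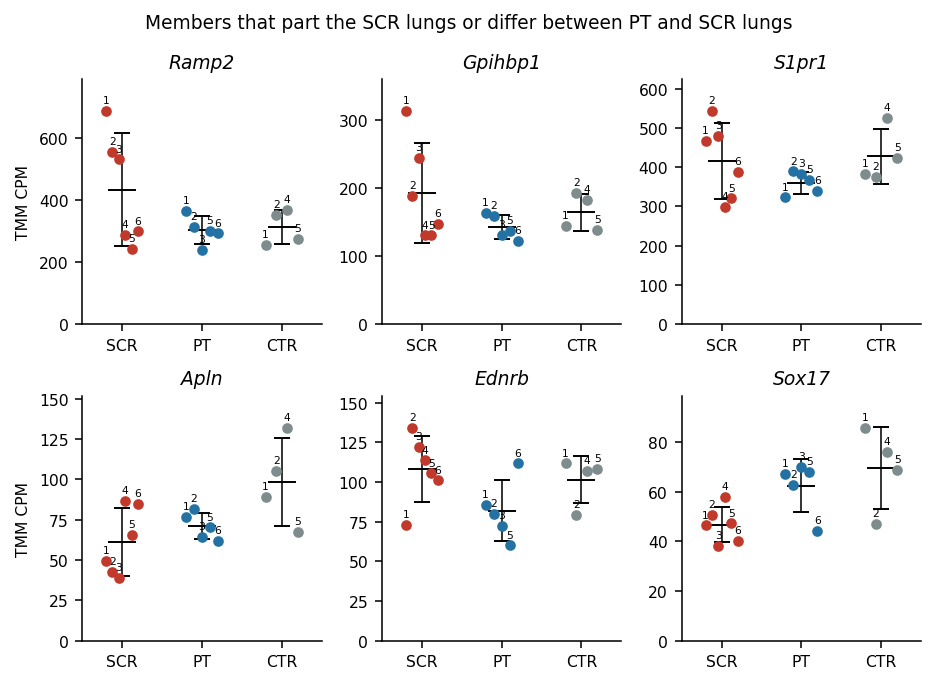
TMM-normalised CPM in each lung (SCR, PT and CTR from left to right, digits giving the lung number) of 6 members, with the mean and SD of each group. SCR-treated lungs 1 to 3 are above the other 12 lungs for Ramp2 (533 to 688 CPM) and below them for Apln (38.7 to 49.3 CPM), while the SCR-treated lungs lie low as a whole for Sox17.

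The large vessel gene stood beside Cdh5 at the low end in SCR-treated lungs and had the lowest log2 fold change of the 34 in PT-bearing lungs. Vwf (chromosome 6, 125546774 to 125686679), the clotting factor stored in endothelial Weibel-Palade bodies and in platelets, had 107, 217 and 248.7 CPM as lowest, median and highest in SCR-treated lungs. It had 198, 246, 152, 165 and 223 CPM in PT-bearing lungs, against 289.8, 476, 380.3 and 235 CPM in CTR lungs. All treated lungs lay below CTR lungs 1, 2 and 4, and CTR lung 5 lay among them. Vwf had a log2 fold change of -0.76 ± 0.23 (adjusted p = 0.124) in SCR-treated and -0.81 ± 0.24 (adjusted p = 0.494) in PT-bearing lungs (edgeR). Without SCR-treated lungs 1 to 3, of which lung 3 held the 107 CPM, the first value was -0.48. The mean log2 CPM over 6 platelet genes was 2.27 to 3.103 in SCR-treated, 3.097 to 3.70 in PT-bearing and 2.82 to 3.18 in CTR lungs, with median log2 fold changes of -0.31 and 0.38 in SCR-treated and PT-bearing lungs. The part of platelets in the Vwf values was not tested.

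The controls themselves spread widely, and part of that spread ran with GC content. Members of low GC content and members of high GC content parted within the CTR group. Calcrl, the lowest in GC content (37.75%), had 761, 1299 and 1514 CPM as lowest, median and highest in SCR-treated lungs and 849, 985, 1469, 1452 and 1213 CPM in PT-bearing lungs, against 1965, 588, 909 and 1844 CPM in CTR lungs 1, 2, 4 and 5. CTR lungs 2 and 4 were the lowest controls for Calcrl, and they were the highest controls in the mean of the 11 members of highest GC content. Over all genes, the log2 level at 40% GC minus that at 60% GC was -0.79 and -0.64 in CTR lungs 2 and 4, and 0.40 and 0.19 in CTR lungs 1 and 5. With a smooth GC term removed per lung, the median SD of a member in log2 CPM was 0.23 instead of 0.24 in SCR-treated lungs, 0.19 instead of 0.26 in PT-bearing lungs and 0.22 instead of 0.27 in CTR lungs. With that term as an offset, Cdh5 had -0.68 and Vwf -0.67 in SCR-treated lungs, and -0.53 and -0.77 in PT-bearing lungs, near their values without it. Others moved more in SCR-treated lungs: Calcrl had -0.29 instead of -0.11, Emcn -0.36 instead of -0.10, Cldn5 -0.16 instead of -0.30 and Rasip1 -0.09 instead of -0.24. Tmem100, Adgrl4, Clec14a and Ednrb were then below 0 and Sox18 above it, so that 30 members instead of 27 were below 0. In SCR-treated lungs 12 members were lower at an unadjusted p under 0.05 with the offset, against 10% of all genes, Plvap being the one lost, and Ramp2 was higher (0.57). In PT-bearing lungs 12 instead of 8 were lower, against 5.88% of all genes.

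**Figure D5:**
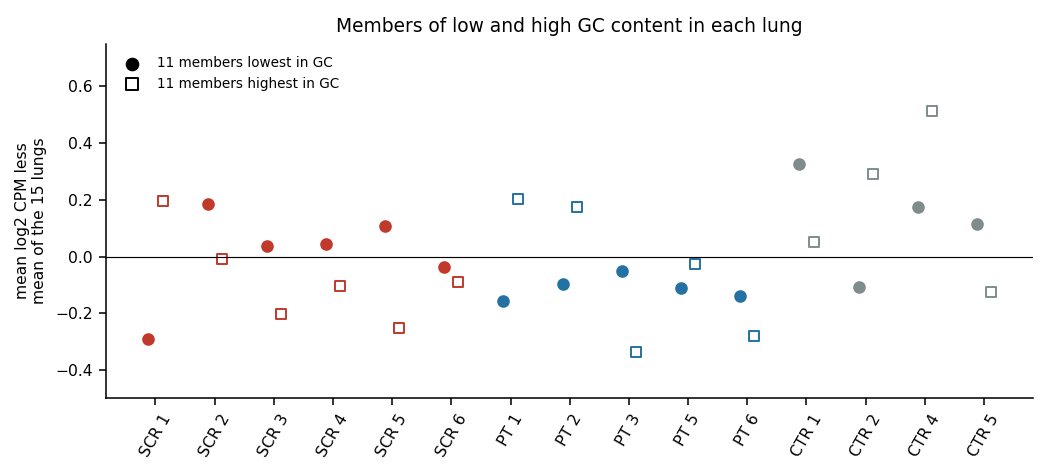
Mean log2 CPM, less the mean of the 15 lungs, of the 11 members lowest in GC content (filled circles) and the 11 highest (open squares) in each lung. The low-GC mean minus the high-GC mean is 0.27 and 0.24 in CTR lungs 1 and 5, and -0.40 and -0.34 in CTR lungs 2 and 4.

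The 12 further lists of endothelial genes, 96 genes outside the members of which 94 were tested, had medians below 0 when pooled. At an unadjusted p under 0.05, 29 were lower and 5 higher in SCR-treated lungs, against 10.2% and 8.58% of all genes. In PT-bearing lungs 17 were lower and 2 higher, against 4.73% and 2.93% of all genes. None had an adjusted p under 0.05 in either. Their median log2 fold changes were -0.23 and -0.22. Not every list was below 0: in PT-bearing lungs the medians of the activation and venous lists were 0.21 and 0.04. Without SCR-treated lungs 1 to 3, the pooled median in SCR-treated lungs was -0.17. Of the 94, 21 were then lower and 1 higher, against 862 and 752 of 15934 genes. All 6 VEGF and Tie receptors were below CTR in both groups. Kdr, the main VEGF receptor, had 210.3 to 509 CPM in SCR-treated and 395 to 480 CPM in PT-bearing lungs, against 516 to 682 CPM in CTR lungs, with log2 fold changes of -0.62 ± 0.22 (adjusted p = 0.156) and -0.45 ± 0.23 (adjusted p = 0.669, edgeR). The first value was -0.19 without SCR-treated lungs 1 to 3. Flt4, the receptor of lymphatic and some capillary cells, had -0.61 and -0.62, the first being -0.41 without those lungs. Of the 8 Notch genes, 3 were lower in SCR-treated and 4 in PT-bearing lungs at an unadjusted p under 0.05, among them Notch1 (-0.57 and -0.58) and the ephrin Efnb2 (-0.39 and -0.48), whose first values were -0.37 and -0.19 without those lungs.

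Among 16 further endothelial transcription factors, the median in SCR-treated lungs was -0.36. At an unadjusted p under 0.05, 6 were lower and 0 higher, against 10.2% and 8.58% of all genes. The list averaged 5.71 to 5.84 (mean log2 CPM) in SCR-treated lungs 1 to 3 and 6.19 to 6.49 in lungs 4 to 6, against 6.33 to 6.65 in CTR lungs. Without lungs 1 to 3 the median was -0.04, and 3 were lower and 1 higher, against 862 and 752 of 15934 genes. Klf4, a flow-responsive factor, had 85.0 to 169 CPM in SCR-treated lungs, 149 to 238 CPM in PT-bearing lungs and 185 to 304 CPM in CTR lungs, at -0.96 ± 0.20 (adjusted p = 0.0668, edgeR) in SCR-treated lungs and -0.82 without lungs 1 to 3. Slit2 and Slit3, ligands of the Robo family, had -0.57 and -0.96 in SCR-treated lungs (-0.28 and -0.64 without lungs 1 to 3) and -0.60 and -0.86 in PT-bearing lungs. Of the 8 aerocyte markers outside the members, 2 were lower in SCR-treated and 1 in PT-bearing lungs at an unadjusted p under 0.05. Of the 7 general capillary markers, 2 were lower and 1 higher in SCR-treated and 1 lower in PT-bearing lungs. Over all genes, 10.2% were lower and 8.58% higher in SCR-treated lungs, and 4.73% were lower in PT-bearing lungs.

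The activation genes lay lower in SCR-treated than in PT-bearing lungs, but none had an adjusted p under 0.05 in any comparison. Of 6 tested, all were higher in PT-bearing than in SCR-treated lungs, with a median log2 fold change of 0.65. At an unadjusted p under 0.05, 4 were higher, against 6.19% of all genes. Against CTR lungs the median was -0.52 in SCR-treated lungs, with 3 lower, against 10.2% of all genes. In PT-bearing lungs it was 0.21, with 1 higher, against 2.93% of all genes. With SCR-treated lungs 1 to 3 left out, the median of PT-bearing over SCR-treated lungs was 0.54. At an unadjusted p under 0.05, 4 of the 6 were then higher in PT-bearing lungs, against 842 of 15934 genes. They were not the same 4: Selp was no longer among them, and the smallest p was that of Lcn2, at 1.02. Vcam1, a leukocyte adhesion molecule, had 105 to 132 CPM in PT-bearing against 57.1 to 108 CPM in SCR-treated lungs (0.59 ± 0.16, adjusted p = 0.16, edgeR), and the difference was 0.32 without SCR-treated lungs 1 to 3. Selp, P-selectin, had 5.32 to 7.62 CPM in PT-bearing against 1.26 to 5.20 CPM in SCR-treated lungs (1.02 ± 0.32, adjusted p = 0.223, edgeR), and the difference was 0.48 without those lungs. Platelets also carry P-selectin. At an unadjusted p under 0.05, 4 of the 6 platelet genes were higher in PT-bearing than in SCR-treated lungs, against 6.19% of all genes. The paper describes Lcn2 as made by neutrophils. Of the 8 neutrophil genes, 6 were higher in PT-bearing than in SCR-treated lungs at that threshold, with a median of 1.24, and 2 without SCR-treated lungs 1 to 3, with a median of 0.63. The part of platelets and neutrophils in the result was not tested.

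Some genes of other lung cell types were lower along with the members. Over all genes, 10.2% were lower in SCR-treated and 4.73% in PT-bearing lungs at an unadjusted p under 0.05. Of 9 fibroblast genes, 5 were lower in SCR-treated and 4 in PT-bearing lungs at an unadjusted p under 0.05, with median log2 fold changes of -0.52 and -0.45 and a mean log2 CPM of 6.33 to 6.90, 6.65 to 7.29 and 6.96 to 7.45 in SCR-treated, PT-bearing and CTR lungs. Of 8 pericyte genes, 3 were lower in SCR-treated and 1 in PT-bearing lungs, and the mean log2 CPM was 4.93 to 5.21 and 5.05 to 5.24 there, against 5.24 to 5.63 in CTR lungs. Of 8 alveolar type 1 genes, 1 was lower in SCR-treated lungs, near the share over all genes, and 3 in PT-bearing lungs, with medians of -0.24 and -0.29. Neutrophil genes went the other way in PT-bearing lungs, with 4 of 8 higher, against 2.93% of all genes, and a median of 1.14. Ciliated cell genes did so in SCR-treated lungs, with 4 of 6 higher, against 8.58% of all genes, and a median of 0.77. Early response genes, which respond to a stimulus within minutes, were lower in 11 of 12 cases in SCR-treated lungs, 3 of them at an adjusted p under 0.05 (edgeR; 8 lower and 0 at an adjusted p under 0.05 without SCR-treated lungs 1 to 3), with a mean log2 CPM of 4.88 to 6.12, against 6.30 to 7.27 in CTR lungs. The mean log2 CPM of the 34 members was 7.80 to 7.97 in SCR-treated, 7.72 to 8.004 in PT-bearing and 7.92 to 8.35 in CTR lungs. Mitochondrial genes took 2.31 to 4.31% of counts in SCR-treated, 2.25 to 3.78% in PT-bearing and 1.32 to 2.92% in CTR lungs. The part of these lists and shares in the members' values was not tested.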

How the data were processed

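Lung RNA was sequenced from 15 mice with TruSeq libraries. Per the submitters' notes and methods, reads were trimmed with cutadapt 1.15, screened with Bowtie2 2.3.3.1, aligned to GRCm38 (Ensembl) with STAR 2.5.2b and SAMtools 1.5 and counted per gene with featureCounts 1.5.3. The authors deposited whole-number counts per gene, not normalised, with gene length and GC content in percent. A second deposited table gives FPKM after the authors' further normalisation for 16137 genes, in which lungs can share 1 identical value (Adgrf5), and it served only as an alternative. Chromosomes came from GENCODE M21 (GRCm38) by Ensembl ID.

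Counts were scaled by TMM (factors 0.879 to 1.08), filtered with filterByExpr and fitted with edgeR 4.0.16 (robust quasi-likelihood, 3 groups, 15 lungs, R 4.3.3), with p-values adjusted over 15870 genes. CPM values are TMM-scaled, and log2 CPM values have a prior count of 2. The threshold was 0.05. The fit was tested on simulated data. Alternatives used DESeq2 1.42.0, limma 3.58.1 and other filters, scalings, covariates and samples. The members and lists were chosen with earlier results of these data known. Values per lung (lowest, median and highest of the 6 SCR-treated lungs) are given for the members with the 10 smallest p in SCR-treated against CTR lungs, the 5 smallest in each other comparison, the highest and lowest levels per length, and all capillary and large vessel members. Others are given by range, and from other lists at most the 4 smallest p are named. The labels do not say that lungs of equal number are paired. Each lung counts as 1 animal, and no 2 lungs of the same group agreed within sampling noise.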

Additional observations from a re-analysis of the deposited data

Results flagged for a closer look

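Each member was examined in each group for a lung that stood far from the rest, 102 groups of values in all, and 5 lungs stood out, where chance gives about 1 in 20 groups. Sox17 was low in PT-bearing lung 6 (44.2 CPM). Car4 was high in PT-bearing lung 1 (280.3 CPM). In CTR lungs, Egfl7 was high in lung 4 (450.0 CPM), Nos3 was low in lung 5 (12.03 CPM) and Ednrb was low in lung 2 (79.4 CPM). No member had SCR-treated and PT-bearing lungs wholly on opposite sides of the CTR mean.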

How the results depend on the processing

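All results were recomputed under 28 alternatives, 15 of which left out 1 lung. The count of members with an adjusted p under 0.05 in SCR-treated against CTR lungs was 8 by DESeq2 (Cdh5, Eng, Mmrn2, Pecam1, Podxl, Sox17, Tie1 and Vwf) and ranged from 0 to 2 when 1 lung was left out: 1 without SCR-treated lung 5 (Cdh5) and 2 without CTR lung 5 (Cdh5 and Mmrn2). It was 0 under all others, and 0 in the other comparisons under every alternative. Members lower at an unadjusted p under 0.05 in PT-bearing lungs, 8 in all lungs, were 5 with library size scaling only, 3 with a replicate block, 2 in male lungs only, 3 with limma on log2(FPKM + 1) or log2(FPKM + 0.1), and 4 (without CTR lung 4) to 14 (without CTR lung 5) with 1 lung left out. The genes lower over all genes, 751 in all lungs, were 370, 292, 236, 772 or 774, 317 and 1073 in the same order. Between PT-bearing and SCR-treated lungs the count of 3 was 0 with library size only and 1 with the replicate block. Of all genes, 599 and 923 were lower there, against 889 in the main fit. With 1 lung left out the count was 0 (without SCR-treated lung 2, 725 genes lower) to 4. The 4 came without SCR-treated lung 4, 5 or 6, with 1124, 1087 and 1047 of all genes lower. The correlations of deviations between lungs of equal number ran from -0.30 to 0.38 and not every pair was positive, so the replicate block pairs only numbers. The medians over members stayed within the spread between lungs. Among the named log2 fold changes, Ramp2 (0.11) and Gpihbp1 (0.049) reversed between PT-bearing and SCR-treated lungs without SCR-treated lungs 1 to 3. Of 728 recomputed named log2 fold changes, 715 kept their direction and their side of an adjusted p of 0.05, and 11 passed it. None of the named values passed it with all lungs in the main fit. Keeping that side was therefore likely beforehand, and the 715 do not measure how stable the values are. With library size scaling only, 670 of all genes were higher and 370 lower at an unadjusted p under 0.05 in PT-bearing against CTR lungs (465 and 751 with TMM), and 1194 higher and 599 lower in PT-bearing against SCR-treated lungs (982 and 889 with TMM). The causes were not tested. FPKM values gave Adgrf5 -1.66 and -1.43 in SCR-treated and PT-bearing lungs, where 3 CTR lungs share 1 value.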
